A study of Mus musculus with 20 samples.

Results

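The 47 genes described here make the proteins that copy DNA and supply its building blocks. They were taken as a fixed list of gene symbols, and all 47 were measured among the 18193 genes that had a probe set of their own name. By role they fell into 8 genes of origin licensing and firing control, 11 of the replicative helicase, 9 of the polymerases and primase, 7 of the sliding clamp and its loaders, 7 of single-strand binding, strand maturation and fork handling, and 5 of nucleotide synthesis. The samples were bone marrow cells of C57/Bl6 mice aged 8 to 10 weeks, described in the labels as VE-cadherin+ and endothelial. The 4 groups of 5 arrays came from non-irradiated mice and from mice given total body irradiation (TBI) of 5 Gy, sampled 6 hours, 24 hours or 14 days later. The labels name no transgene, sort gate or pooling. They describe replicates as biological without saying whether an array holds 1 animal, so the p-values measure only how far these samples spread, which may in part be technical. Signals are linear array intensities, and changes are differences of log2(signal + 1) with the standard error of limma's model.

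A cell prepares to copy its genome by loading the ring-shaped MCM helicase onto origins, a step called licensing, and later fires those origins with the kinase Cdc7 and its activator Dbf4. The active helicase unwinds the DNA, primase and polymerase alpha lay down starts, polymerases delta and epsilon extend them on the Pcna clamp, and Fen1 and Lig1 join the pieces. Ribonucleotide reductase, thymidylate synthase and thymidine kinase keep up the supply of deoxynucleotides. In mammals most of these genes are transcribed as cells go from G1 into S phase, so in bone marrow their RNA is abundant in dividing blood cell precursors and scarce in resting cells.

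No endothelial marker of 16 was at background on all arrays of a group. The same held for the 14 measured pan-leukocyte and 10 granulocyte markers, so RNA of genes that mark blood cells was measured in each group of samples labelled endothelial. Each array's background, the 95th percentile of 27 probe sets for bacterial genes, lay between 17.5 and 51.5. Cdkn1a, the p53-induced cell cycle inhibitor, averaged 5968 ± 416 at 6 hours, against 943 ± 66.8 in the non-irradiated group (mean signal ± SD, n = 5 each). The array medians ranged from 167 to 193.5 in the non-irradiated group, 137 to 162.5 at 6 hours, 128 to 142 at 24 hours and 87.3 to 109 at day 14, while the deposited scaling held the trimmed mean of each array at 500. Of 940 signals of the 47 genes, 3 lay at or under the background of their array: Orc1 on 1 array at 6 hours, and Dscc1 and Chaf1b on another. The fitted changes of these 3 genes at 6 hours are therefore no exact sizes.

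At 6 hours nearly the whole replication apparatus read lower after irradiation. Of the 47 genes 46 fell and 0 rose (limma adjusted p under 0.05 over all genes; 0 higher at an unadjusted p under 0.05 as well), where 14.5% of all genes tested fell and 12.9% rose. Their median log2 change was -1.70, or 3.24-fold lower, against -0.02 over all genes. Falls of at least 2-fold were seen for 43 genes, but the share of all genes falling that far is not given here. For 43 genes all 5 arrays at 6 hours lay below all 5 non-irradiated arrays, as did 8.05% of all genes. No gene of the 47 lay wholly above them, beside 7.59% of all genes. The fitted changes ran from -3.48 for the licensing factor Cdc6, close to -3.46 for Chaf1b, which is no exact size, to that of the clamp loader subunit Rfc2 (-0.57 ± 0.24, limma adjusted p = 0.077), the 1 gene that missed the threshold. In these bulk samples fewer cells that make an RNA and less RNA per cell cannot be told apart.

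At 24 hours the genes were still low. Again 46 fell and 0 rose (0 higher at an unadjusted p under 0.05), beside 13.8% of all genes lower and 15.7% higher in limma's test. The median change was -1.65, or 3.13-fold lower, against -0.07 over all genes. At this time 44 genes had all 5 arrays below all 5 non-irradiated arrays, beside 12.9% of all genes, and 0 had them above, beside 15.1%. A fall of at least 2-fold was seen for 42 genes, and the share of all genes falling that far is again not given. Orc1, the ATPase subunit of the origin recognition complex, missed the threshold (-1.08 ± 0.51, limma adjusted p = 0.117). The 6-hour and 24-hour comparisons share the 5 non-irradiated arrays, so their counts are not independent of each other.

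By day 14 the pattern had turned. Relative to non-irradiated samples 14 genes rose and 1 fell, beside 9.47% and 13.0% of all genes, and 32 were not called in either direction (23 higher and 2 lower at an unadjusted p under 0.05). The median change was 0.42, or 1.34-fold higher, against -0.18 over all genes, and, read from the brightest probe set, no gene was higher by as much as 2-fold. All 5 arrays at day 14 lay above all 5 non-irradiated arrays for 25 genes, beside 11.4% of all genes, and wholly below for 0, beside 11.6%. Measured against 24 hours instead, 46 genes rose by day 14 and 0 fell, beside 15.2% and 21.7% of all genes, with a median of 1.99, and against 6 hours 46 rose and 0 fell, beside 19.8% and 25.0%, with a median of 1.96. All 5 day 14 arrays lay above all 5 arrays at 24 hours for 46 genes and above all 5 at 6 hours for 44, beside 15.7% and 13.1% of all genes, and for 0 genes below them, beside 20.6% and 15.1%. In both of these contrasts Orc1 was the gene not called. The count at day 14 depends on the scale of the arrays. Centring each array on its median shifts the median of all genes from -0.18 to 0.72 and gives 46 genes higher and 0 lower, while quantile normalization leaves 8 higher. The shares of all genes called in these 2 fits are not given here, so neither count is read as a result about the 47 genes. The 47 genes' median stood 0.60 above that of all genes as deposited and after centring, and 0.11 above it after quantile normalization. When each of the 10 arrays of this contrast was left out in turn, the calls of 9 of the 14 genes held throughout. Those of Cdc6 and Orc6 were lost in 9 of the 10 fits, that of Gins1 in 8, and those of Rpa1 and Rpa2 in 3. The count was 9 without day 14 replicate 3 or without non-irradiated replicate 2. The model takes 1 spread from all 4 groups, the uneven 6-hour arrays included. Fitted on the 2 groups alone, 32 genes were higher and 2 lower, and the share of all genes called in that fit is not given here.

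**Figure D1:**
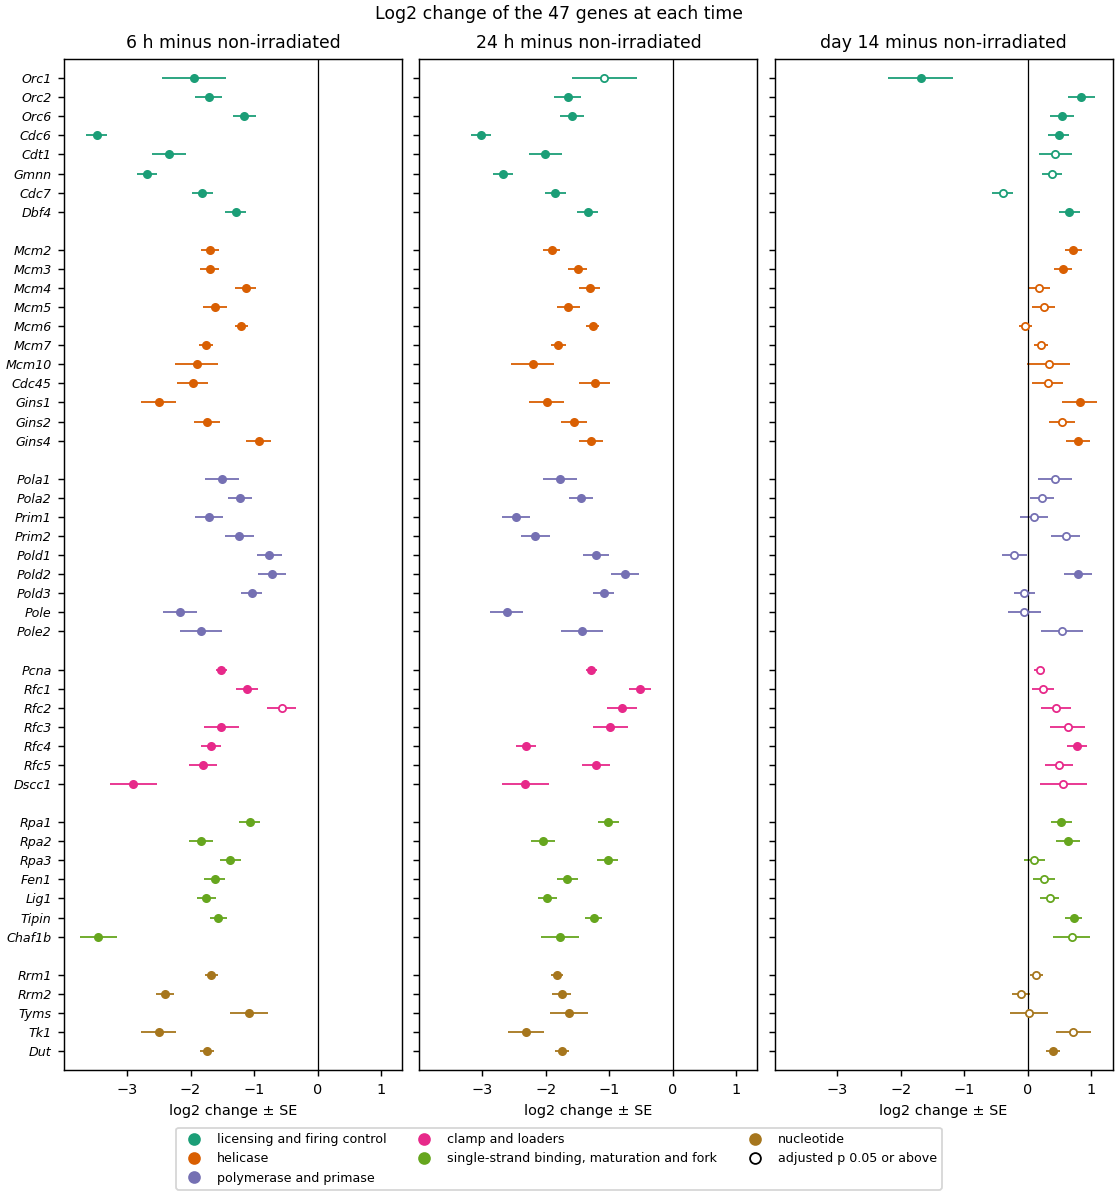
Log2 change from the non-irradiated group (x axis, ± standard error) of each of the 47 genes (rows, coloured by role) at 6 hours, 24 hours and day 14, all on 1 scale. Filled points passed limma's adjusted p under 0.05: 46 genes lie left of 0 and filled at 6 hours and again at 24 hours, and at day 14 there are 14 filled points right of 0 and 1, Orc1, left of it.

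Promoter letters were looked at because these genes moved together and because E2F transcription factors, which bind DNA near the start of many S-phase genes in mammals, are known regulators of replication genes. The letters searched were TTCCCGC, then TTCGCGC, then TTGCCGC, then TTGGCGC, each on both strands, in the 250 bases before each RefSeq transcription start (build GRCm38.p6). Matches of the letters on opposite strands can overlap. Of the 47 genes 37 had a promoter sequence, and 15 of these held a match (40.5%), against 13.3% of the 14368 measured genes that had a promoter sequence. The letters CCAAT, read by the factor NF-Y, were in 56.8% of the 37 against 39.4% of measured genes, and TTTGAA or TTCGAA, letters of cell cycle genes expressed later, in 18.9% against 15.7%. A match is a description of the letters and not a bound site. The 120 bases before the start are printed below for 1 gene of each role, the one with the most matches in that window and, among equals, the larger fall at 6 hours, with matching letters in capitals:

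Orc1: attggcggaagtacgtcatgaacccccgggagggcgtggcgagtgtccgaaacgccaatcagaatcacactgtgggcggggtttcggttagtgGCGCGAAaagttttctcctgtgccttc
Mcm6: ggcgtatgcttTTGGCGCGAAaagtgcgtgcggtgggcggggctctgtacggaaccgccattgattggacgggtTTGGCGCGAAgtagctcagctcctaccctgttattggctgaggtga
Prim1: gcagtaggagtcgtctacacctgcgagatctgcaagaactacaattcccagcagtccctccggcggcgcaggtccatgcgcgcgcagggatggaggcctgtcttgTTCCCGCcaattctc
Rfc3: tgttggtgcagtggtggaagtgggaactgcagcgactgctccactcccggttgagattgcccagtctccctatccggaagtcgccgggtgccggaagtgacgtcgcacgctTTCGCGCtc
Rpa2: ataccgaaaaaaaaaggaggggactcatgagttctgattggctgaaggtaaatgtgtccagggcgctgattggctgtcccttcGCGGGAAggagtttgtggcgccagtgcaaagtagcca
Rrm1: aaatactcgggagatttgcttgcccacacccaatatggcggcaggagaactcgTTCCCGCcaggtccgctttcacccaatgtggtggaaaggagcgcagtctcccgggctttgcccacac

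These windows end at the base before the start and are written along the transcribed strand. They lie at chr4:108579334-108579453 (plus strand) for Orc1, chr1:128359706-128359825 (minus strand) for Mcm6, chr10:128015095-128015214 (plus strand) for Prim1, chr5:151651209-151651328 (minus strand) for Rfc3, chr4:132768240-132768359 (plus strand) for Rpa2 and chr7:102441575-102441694 (plus strand) for Rrm1. Mcm6 held 4 matches, which overlap in pairs so that each capital stretch reads as a match on both strands, and the other 5 windows held 1 match each. Cdc45, Mcm2 and Tk1 held none of these letters in their 250 bases, and all 3 were called lower at 6 and 24 hours.

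Licensing and firing control had the largest median fall of the 6 roles at 6 hours (-1.88), with -1.75 at 24 hours and 0.46 at day 14. Cdc6, the ATPase that brings the helicase to origins, read 3372, 3482, 3473, 3393 and 3281 in the non-irradiated group and 267, 297, 316, 457 and 224 at 6 hours. Its signals were 474, 303, 477, 484 and 385 at 24 hours and 4804, 4944, 4854, 4579 and 4584 at day 14. All early arrays lay about an order of magnitude below the non-irradiated ones, and all day 14 arrays lay above them. The log2 changes were -3.48 ± 0.16 at 6 hours, -3.02 ± 0.16 at 24 hours and 0.48 ± 0.16 at day 14 (limma adjusted p = 1.46e-14, 1.44e-13 and 0.0319). The day 14 call of Cdc6 was lost in 9 of 10 fits with an array left out. Cdt1, its partner in helicase loading, gave 5701, 5392, 4835, 5338 and 5042 in the non-irradiated group and 613, 1284, 982, 568 and 2745 at 6 hours. The later values were 965, 1796, 1524, 1075 and 1346 at 24 hours and 7250, 7021, 7721, 7007 and 6521 at day 14. The arrays at 6 hours spread widely, with replicate 5 far above the other 4 and still below every non-irradiated array. Its changes were -2.34 ± 0.26 at 6 hours, -2.01 ± 0.26 at 24 hours and 0.43 ± 0.26 at day 14 (limma adjusted p = 1.37e-07, 1.2e-06 and 0.248). Gmnn encodes geminin, the inhibitor of Cdt1, and read 2487, 2352, 2051, 2574 and 2917 in the non-irradiated group and 281, 407, 437, 324 and 496 at 6 hours. It read 452, 409, 395, 368 and 306 at 24 hours and 2886, 3461, 3396, 3080 and 3144 at day 14. Both early groups were separate from the non-irradiated group, and the day 14 arrays overlapped it at the low end. Changes of Gmnn were -2.69 ± 0.16 at 6 hours, -2.68 ± 0.16 at 24 hours and 0.37 ± 0.16 at day 14 (limma adjusted p = 1.13e-12, 1.06e-12 and 0.0899).

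The origin recognition complex marks the origins. Orc2, one of its core subunits, read 1489, 1367, 1527, 1354 and 1298 in the non-irradiated group and 734, 544, 508, 233 and 299 at 6 hours. It gave 382, 440.1, 423, 469.5 and 528 at 24 hours and 2463, 2617, 2524, 2847 and 2205 at day 14. The early arrays were all below and the day 14 arrays all above the non-irradiated range. Changes were -1.72 ± 0.21 at 6 hours, -1.65 ± 0.21 at 24 hours and 0.84 ± 0.21 at day 14 (limma adjusted p = 6.85e-07, 9.9e-07 and 0.00603). Orc6, the smallest subunit, had signals of 2158, 1823, 1612, 1827 and 1804 in the non-irradiated group and 1027, 1007, 1150, 742 and 435 at 6 hours. They were 555, 538, 603, 729 and 653 at 24 hours and 2548, 2876, 2750, 2669 and 2492 at day 14. No array of an irradiated group fell inside the non-irradiated range. Its changes were -1.15 ± 0.19 at 6 hours, -1.58 ± 0.19 at 24 hours and 0.54 ± 0.19 at day 14 (limma adjusted p = 2.76e-05, 2.2e-07 and 0.04). With an array left out the day 14 call of Orc6 was lost in 9 of 10 fits. Orc1 was dim and uneven, at 425, 191, 522, 349.5 and 841 in the non-irradiated group and 154, 86.5, 138, 184 and 42.0 at 6 hours. It stood at 373, 147, 293, 349 and 51.6 at 24 hours and 137, 137, 86.1, 76.9 and 277 at day 14. The 24-hour and day 14 arrays overlapped the non-irradiated arrays, which themselves ran from 191 to 841. Changes of Orc1 were -1.94 ± 0.51 at 6 hours, -1.08 ± 0.51 at 24 hours and -1.69 ± 0.51 at day 14 (limma adjusted p = 0.00469, 0.117 and 0.0182). It was the only 1 of the 47 genes called lower at day 14, and the call was lost without day 14 replicate 4 or without non-irradiated replicate 5. A second Orc1 probe set gave 0.40 at day 14 and -2.78 at 24 hours, so the direction at day 14 is not settled.

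Cdc7, the kinase that triggers origin firing, read 1824, 2386, 2182, 2025 and 2689 in the non-irradiated group and 624, 525, 995, 494 and 587 at 6 hours. Its later signals were 636, 578, 598, 602 and 634 at 24 hours and 1592, 1825, 1993, 1469 and 1552 at day 14. Early arrays were all below the non-irradiated ones, and the day 14 arrays overlapped them. Changes were -1.82 ± 0.16 at 6 hours, -1.85 ± 0.16 at 24 hours and -0.39 ± 0.16 at day 14 (limma adjusted p = 3.24e-09, 1.73e-09 and 0.0862). Dbf4, which activates Cdc7, read 1031, 1388, 1050, 1019 and 1042 in the non-irradiated group and 539, 446, 439, 396 and 432 at 6 hours. It then read 391, 327, 577, 525 and 393 at 24 hours and 1724, 1768, 1883, 1687 and 1566 at day 14. Here too the early groups lay wholly below the non-irradiated arrays, but the day 14 arrays lay wholly above them. Changes of Dbf4 were -1.29 ± 0.16 at 6 hours, -1.34 ± 0.16 at 24 hours and 0.65 ± 0.16 at day 14 (limma adjusted p = 8.83e-07, 4e-07 and 0.0058). Its other probe set was called lower at day 14 (-1.53), which made Dbf4 the 1 gene of the 35 with several probe sets that was called both ways.

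**Figure D2:**
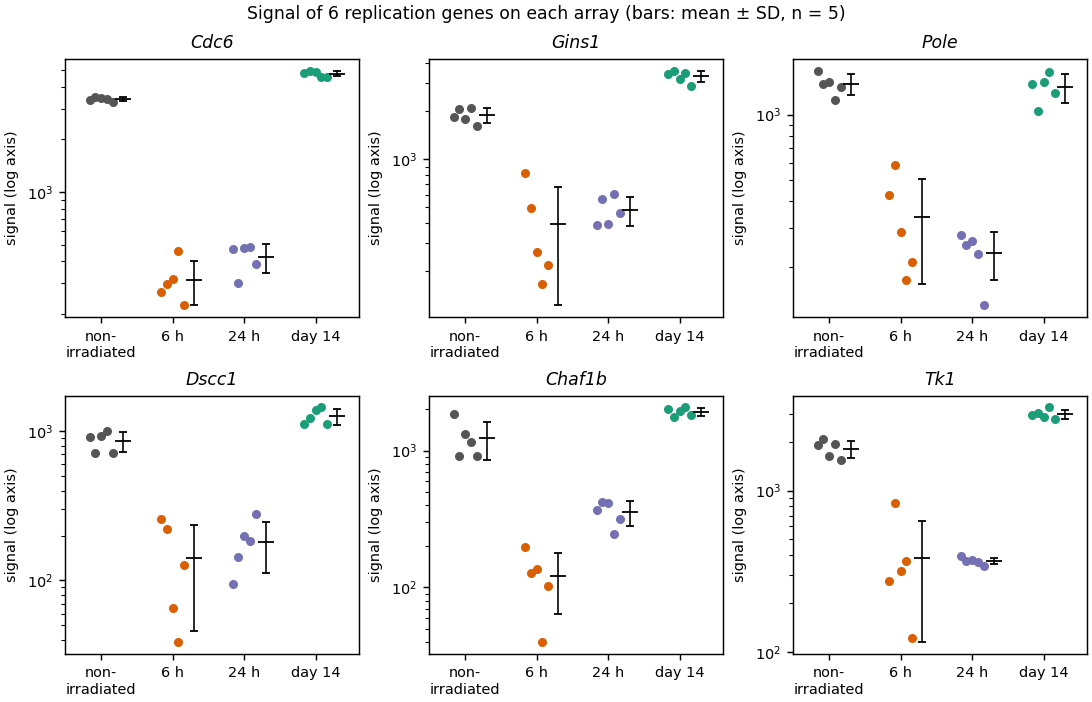
Signal of Cdc6, Gins1, Pole, Dscc1, Chaf1b and Tk1 on each array (points, log y axis, 5 arrays per group) for non-irradiated samples, 6 hours, 24 hours and day 14, with mean ± SD as bars. All arrays at 6 and 24 hours lie below all non-irradiated arrays in the 6 panels. The points at 6 hours spread most, as for Tk1, from 123 to 835.

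All 11 helicase genes fell at both early times. Their median change was -1.70 at 6 hours and -1.55 at 24 hours, and at day 14 it was 0.32, with 4 genes higher and 0 lower. The ring subunits Mcm2 to Mcm7 had changes between -1.76 (Mcm7) and -1.13 (Mcm4) at 6 hours, and between -1.91 (Mcm2) and -1.26 (Mcm6) at 24 hours. Mcm2 read 2587, 2605, 2477, 3098 and 2762 in the non-irradiated group and 934, 793, 723, 1162 and 642 at 6 hours. It read 662, 778, 682, 839 and 651 at 24 hours and 4489, 4143, 4596, 4684 and 4272 at day 14. Every early array was below, and every day 14 array above, the non-irradiated arrays. Changes of Mcm2 were -1.70 ± 0.14 at 6 hours, -1.91 ± 0.14 at 24 hours and 0.72 ± 0.14 at day 14 (limma adjusted p = 3.99e-10, 3.23e-11 and 0.000475). Mcm3 showed 5454, 5798, 5204, 5587 and 5370 in the non-irradiated group and 1256, 1523, 1317, 2621 and 2064 at 6 hours. It showed 2521, 1824, 1826, 1813 and 1807 at 24 hours and 8525, 7264, 8459, 7947 and 8005 at day 14. The same separation from the non-irradiated arrays held at all 3 times. Its changes were -1.70 ± 0.15 at 6 hours, -1.50 ± 0.15 at 24 hours and 0.55 ± 0.15 at day 14 (limma adjusted p = 1.42e-09, 9.91e-09 and 0.00846). The other 4 ring genes were not called at day 14, with changes from -0.04 (Mcm6) to 0.25 (Mcm5).

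GINS and Cdc45 bind the MCM ring and turn it into an active helicase. Gins1 read 1845, 2067, 1775, 2101 and 1624 in the non-irradiated group and 824, 497, 262, 166 and 218 at 6 hours. Its signals were 389, 561, 393, 601 and 460.4 at 24 hours and 3425, 3549, 3189, 3493 and 2880 at day 14. The highest 6-hour array, replicate 1, was below the lowest non-irradiated array, and every day 14 array was above the highest. Changes were -2.50 ± 0.28 at 6 hours, -1.98 ± 0.28 at 24 hours and 0.82 ± 0.28 at day 14 (limma adjusted p = 9.78e-08, 2.94e-06 and 0.0357). With an array left out the day 14 call of Gins1 was lost in 8 of 10 fits. Gins4 gave 2109, 1254, 1999, 1517 and 1460 in the non-irradiated group and 606, 982, 976, 617 and 1302 at 6 hours. It gave 576, 631, 922, 568 and 709.9 at 24 hours and 2796, 2622, 3147, 2907 and 2679 at day 14. At 6 hours replicate 5 reached into the non-irradiated range, while the 24-hour and day 14 arrays stayed outside it. Its changes were -0.93 ± 0.19 at 6 hours, -1.29 ± 0.19 at 24 hours and 0.79 ± 0.19 at day 14 (limma adjusted p = 0.000536, 8.2e-06 and 0.00452). Cdc45 read 536, 525, 719, 699 and 528 in the non-irradiated group and 111, 242, 100.1, 123 and 238 at 6 hours. Later it read 254, 274, 276, 235 and 231 at 24 hours and 809, 803, 640.5, 836 and 629 at day 14. All early arrays were below the non-irradiated range and day 14 arrays overlapped it. Changes of Cdc45 were -1.97 ± 0.24 at 6 hours, -1.23 ± 0.24 at 24 hours and 0.31 ± 0.24 at day 14 (limma adjusted p = 5.99e-07, 0.00029 and 0.384). Mcm10, a factor needed to start unwinding, read 1341, 1399, 894, 1101 and 967 in the non-irradiated group and 96.4, 186, 357, 632 and 590.2 at 6 hours. Its later signals were 248, 186, 253, 241 and 298 at 24 hours and 1349, 1135, 1269, 1778 and 1595 at day 14. The 6-hour arrays spread from 96.4 to 632, the 24-hour arrays were tight, and both stayed below the non-irradiated arrays. Changes of Mcm10 were -1.90 ± 0.34 at 6 hours, -2.21 ± 0.34 at 24 hours and 0.32 ± 0.34 at day 14 (limma adjusted p = 0.000101, 1.27e-05 and 0.526). Gins2 fell too, with log2 changes of -1.74 ± 0.21 and -1.55 ± 0.21 at 6 and 24 hours.

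Polymerases and primase had the smallest median fall at 6 hours (-1.23), and the median was -1.44 at 24 hours. All 9 genes fell at both times, and 1 rose at day 14. Pole, the catalytic subunit of polymerase epsilon, read 1592, 1386, 1420, 1164 and 1339 in the non-irradiated group and 429, 586, 287, 174 and 209 at 6 hours. It read 278, 251, 262, 228 and 132 at 24 hours and 1383, 1043, 1414, 1576 and 1261 at day 14. Early arrays were all below the non-irradiated range, and day 14 arrays lay across it. Changes were -2.17 ± 0.26 at 6 hours, -2.62 ± 0.26 at 24 hours and -0.05 ± 0.26 at day 14 (limma adjusted p = 4.14e-07, 1.45e-08 and 0.907). Pole2, its accessory subunit, gave 709.9, 749, 1018, 953 and 1013 in the non-irradiated group and 312, 176, 883, 135 and 136 at 6 hours. It gave 329, 321, 308, 336 and 334 at 24 hours and 1409, 1170, 1418, 1241 and 1175 at day 14. At 6 hours replicate 3 stood inside the non-irradiated range and the other 4 far below it, whereas the 24-hour arrays were within 308 to 336. Its changes were -1.84 ± 0.33 at 6 hours, -1.43 ± 0.33 at 24 hours and 0.54 ± 0.33 at day 14 (limma adjusted p = 0.000102, 0.00142 and 0.249). Pold2, an accessory subunit of polymerase delta, read 696, 554, 447, 679.5 and 686 in the non-irradiated group and 652, 289.8, 411, 229.6 and 369 at 6 hours. It had 354, 369, 399, 319 and 348 at 24 hours and 994, 962, 1158, 1002 and 1122 at day 14. Replicate 1 at 6 hours overlapped the non-irradiated arrays, and the day 14 arrays were all above them. Changes of Pold2 were -0.72 ± 0.22 at 6 hours, -0.76 ± 0.22 at 24 hours and 0.79 ± 0.22 at day 14 (limma adjusted p = 0.0141, 0.00934 and 0.0108). The catalytic subunit Pold1 and the accessory Pold3 had log2 changes of -0.76 ± 0.20 and -1.04 ± 0.16 at 6 hours, and neither was called at day 14.

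Primase makes the RNA starts of each new strand. Prim1, its catalytic subunit, read 3776, 3219, 3346, 3236 and 3368 in the non-irradiated group and 2104, 1088, 657, 606 and 1270 at 6 hours. It read 485, 712, 694, 592 and 588 at 24 hours and 3729, 3788, 4071, 3626 and 3011 at day 14. Replicates 3 and 4 at 6 hours read within the 24-hour range, and the other 3 read above it. Its changes were -1.72 ± 0.22 at 6 hours, -2.47 ± 0.22 at 24 hours and 0.10 ± 0.22 at day 14 (limma adjusted p = 9.86e-07, 1.77e-09 and 0.778). Prim2, the large subunit, gave 1520, 1574, 1671, 1826 and 1904 in the non-irradiated group and 1359, 643, 554, 954 and 421 at 6 hours. It gave 504, 430.3, 426, 278 and 298 at 24 hours and 2254, 2659, 3258, 2392 and 2347 at day 14. All day 14 arrays were above all non-irradiated arrays, yet the change missed the threshold. Changes of Prim2 were -1.23 ± 0.23 at 6 hours, -2.16 ± 0.23 at 24 hours and 0.60 ± 0.23 at day 14 (limma adjusted p = 0.000171, 4.2e-08 and 0.0643). With only the 2 groups fitted its day 14 change passed (limma adjusted p = 0.000233), and with averaged probe sets it was -0.47. That average takes in a probe set near background, with a day 14 mean of 20.6. The 2 genes of polymerase alpha, which works in a complex with primase, fell at both times. Pola1, the catalytic subunit, had log2 changes of -1.51 ± 0.27 at 6 hours and -1.77 ± 0.27 at 24 hours, and Pola2, its accessory subunit, had -1.22 ± 0.19 and -1.44 ± 0.19.

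The clamp and its loaders had median changes of -1.52 at 6 hours, -1.21 at 24 hours and 0.49 at day 14. Pcna, the sliding clamp that holds polymerases on DNA, was bright and tight, at 10070, 9642, 10500, 10750 and 10250 in the non-irradiated group and 4286, 3742, 2847, 3243 and 3941 at 6 hours. It read 4093, 4349, 4317, 4141 and 4171 at 24 hours and 13010, 11740, 11910, 11580 and 10230 at day 14. No early array exceeded 4349, and no other array was under 9642. Changes were -1.52 ± 0.09 at 6 hours, -1.28 ± 0.09 at 24 hours and 0.19 ± 0.09 at day 14 (limma adjusted p = 1.13e-12, 1.85e-11 and 0.131). Dscc1, part of an alternative loader linked to sister chromatid cohesion, gave 917, 720.5, 929.8, 1012 and 720.3 in the non-irradiated group and 258, 219.8, 65.0, 38.7 and 126 at 6 hours. It gave 94.6, 144, 199.6, 184 and 277 at 24 hours and 1119, 1226, 1385, 1446 and 1117 at day 14. Early arrays never reached the non-irradiated range, and day 14 arrays all exceeded it. Its changes were -2.91 ± 0.37 at 6 hours, -2.32 ± 0.37 at 24 hours and 0.56 ± 0.37 at day 14 (limma adjusted p = 9.51e-07, 1.96e-05 and 0.296).

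Rfc1 to Rfc5 form the standard clamp loader. Rfc4, a small subunit, read 1520, 1170, 1274, 1819 and 1691 in the non-irradiated group and 559, 473, 424, 379 and 474 at 6 hours. It read 300.2, 228, 296, 330.1 and 334 at 24 hours and 2485, 2366, 2851, 2551 and 2416 at day 14. The 24-hour arrays were all below the 6-hour arrays, which were all below the non-irradiated arrays, and day 14 was highest. Changes were -1.68 ± 0.16 at 6 hours, -2.32 ± 0.16 at 24 hours and 0.78 ± 0.16 at day 14 (limma adjusted p = 6.95e-09, 1.57e-11 and 0.000974). Rfc5 showed 1182, 932, 906, 1308 and 1092 in the non-irradiated group and 197, 229, 521, 396 and 285 at 6 hours. It showed 434, 381, 536, 368 and 664 at 24 hours and 1439, 1430, 1673, 1547 and 1461 at day 14. Early arrays stayed below the non-irradiated range and day 14 arrays above it, without a call at day 14. Its changes were -1.81 ± 0.22 at 6 hours, -1.21 ± 0.22 at 24 hours and 0.49 ± 0.22 at day 14 (limma adjusted p = 5.29e-07, 0.000122 and 0.116). Rfc3 had 796, 582, 625, 453 and 638 in the non-irradiated group and 324, 148, 266, 244 and 137 at 6 hours. Its signals were 292, 207, 446, 519 and 197 at 24 hours and 815, 1069, 940.1, 899 and 1008 at day 14. Replicate 4 at 24 hours reached into the non-irradiated range. Changes of Rfc3 were -1.52 ± 0.27 at 6 hours, -0.98 ± 0.27 at 24 hours and 0.63 ± 0.27 at day 14 (limma adjusted p = 0.00011, 0.00734 and 0.101). With only the 2 groups fitted its day 14 change passed (limma adjusted p = 0.00235). Rfc2 read 3396, 2996, 1703, 2168 and 2250 in the non-irradiated group and 2587, 1158, 2748, 909 and 1571 at 6 hours. It read 1295, 1560, 1264, 1209 and 1691 at 24 hours and 3707, 3489, 3996, 3016 and 2542 at day 14. Replicates 1 and 3 at 6 hours stood within the wide non-irradiated range, the other 3 below it, and day 14 overlapped. Changes of Rfc2 were -0.57 ± 0.24 at 6 hours, -0.80 ± 0.24 at 24 hours and 0.45 ± 0.24 at day 14 (limma adjusted p = 0.077, 0.0106 and 0.178). At 6 hours its other probe sets fell (-0.70 and -1.04), and the mean of its probe sets passed the threshold. Rfc1, the large subunit, had log2 changes of -1.11 ± 0.17 at 6 hours and -0.52 ± 0.17 at 24 hours, the smallest fall of that time among the 47 genes.

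Single-strand binding, maturation and fork genes all fell at both early times, with medians of -1.62 and -1.66, and 3 of the 7 rose at day 14 (median 0.52). Chaf1b, a subunit of the chaperone CAF-1 that places histones behind the fork, read 1848, 909.9, 1321, 1160 and 919 in the non-irradiated group and 197, 128, 137, 39.98 and 103 at 6 hours. It read 369, 417, 414, 244 and 318 at 24 hours and 2014, 1762, 1940, 2064 and 1829 at day 14. The 24-hour arrays were all above the 6-hour arrays and all below the non-irradiated ones. Changes were -3.46 ± 0.29 at 6 hours, -1.78 ± 0.29 at 24 hours and 0.69 ± 0.29 at day 14 (limma adjusted p = 1.01e-09, 2.88e-05 and 0.0909). With only the 2 groups fitted the day 14 change of Chaf1b passed (limma adjusted p = 0.00135), and with averaged probe sets it was -0.29. Its other probe set had group means of only 10.5 to 30.8 and was not called at any time. Rpa1 and Rpa2 belong to the trimer that coats single-stranded DNA. Rpa2 gave 2567, 2347, 2729, 2604 and 2719 in the non-irradiated group and 778, 637, 582, 1282 and 542 at 6 hours. It gave 650, 619, 399, 839 and 721 at 24 hours and 3803, 3541, 4367, 4600 and 3825 at day 14. Early arrays were all below and day 14 arrays all above the non-irradiated arrays. Its changes were -1.83 ± 0.19 at 6 hours, -2.04 ± 0.19 at 24 hours and 0.63 ± 0.19 at day 14 (limma adjusted p = 4.41e-08, 5.35e-09 and 0.0207). Rpa1 had 7241, 5567, 6480, 5577 and 6716 in the non-irradiated group and 2820, 3871, 3697, 1544 and 3866 at 6 hours. Its signals were 2717, 3219, 3445, 3363 and 2859 at 24 hours and 9173, 9100, 9912, 8821 and 8249 at day 14. These too were apart from the non-irradiated arrays at each time. Changes of Rpa1 were -1.07 ± 0.17 at 6 hours, -1.02 ± 0.17 at 24 hours and 0.52 ± 0.17 at day 14 (limma adjusted p = 1.86e-05, 3.07e-05 and 0.0262). With an array left out the day 14 calls of Rpa1 and Rpa2 were each lost in 3 of 10 fits. The third subunit Rpa3 had -1.38 ± 0.16 and -1.02 ± 0.16 at 6 and 24 hours and was not called at day 14.

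Tipin works with Timeless to steady the fork, and read 2635, 2465, 2472, 2643 and 2441 in the non-irradiated group and 681, 687, 825, 993 and 1193 at 6 hours. It read 904, 1089, 1155, 991 and 1214 at 24 hours and 4270, 4218, 4431, 4189 and 3792 at day 14. None of the irradiated arrays fell inside the non-irradiated range. Changes were -1.56 ± 0.14 at 6 hours, -1.25 ± 0.14 at 24 hours and 0.72 ± 0.14 at day 14 (limma adjusted p = 1.47e-09, 5.48e-08 and 0.000403), the smallest adjusted p of the 47 genes at day 14. Lig1, the ligase that seals finished fragments, gave 3474, 3505, 3856, 4064 and 4581 in the non-irradiated group and 761, 961, 1581, 1533 and 1130 at 6 hours. It gave 1034, 979.5, 929, 966 and 1023 at 24 hours and 5344, 4811, 5176, 4660 and 4591 at day 14. Day 14 arrays lay just above the non-irradiated range, with no call. Its changes were -1.75 ± 0.15 at 6 hours, -1.97 ± 0.15 at 24 hours and 0.34 ± 0.15 at day 14 (limma adjusted p = 1.13e-09, 9.69e-11 and 0.103). Fen1, the nuclease that trims the flaps before ligation, had -1.62 ± 0.17 at 6 hours, -1.66 ± 0.17 at 24 hours and 0.25 ± 0.17 at day 14, the last not called.

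The 5 nucleotide genes all fell at both early times (medians -1.74 and -1.75) and had the smallest median at day 14 (0.13), with 1 gene higher. Rrm1, the large subunit of ribonucleotide reductase, read 9464, 9638, 10060, 10380 and 9996 in the non-irradiated group and 3001, 4195, 2576, 2941 and 3015 at 6 hours. It read 3008, 2730, 2676, 3106 and 2541 at 24 hours and 11930, 10640, 11120, 11000 and 9694 at day 14. Early arrays were separate from the rest, and day 14 overlapped the non-irradiated arrays. Changes were -1.67 ± 0.10 at 6 hours, -1.82 ± 0.10 at 24 hours and 0.13 ± 0.10 at day 14 (limma adjusted p = 1.13e-12, 1.91e-13 and 0.353). Rrm2, the small subunit used in S phase, gave 12020, 13870, 13510, 13800 and 13850 in the non-irradiated group and 2255, 2408, 3755, 1604 and 3146 at 6 hours. It gave 4938, 3201, 4118, 4031 and 3794 at 24 hours and 13360, 12540, 12700, 12240 and 11330 at day 14. Low early arrays and overlapping late ones were seen again. Its changes were -2.41 ± 0.15 at 6 hours, -1.75 ± 0.15 at 24 hours and -0.11 ± 0.15 at day 14 (limma adjusted p = 2.41e-12, 6.31e-10 and 0.627). Its other 2 probe sets were called higher at day 14, by 0.82 (limma adjusted p = 0.000168) and 0.46 (limma adjusted p = 0.0167), so its day 14 direction depends on the probe set. Tk1, the cytosolic thymidine kinase, had 1915, 2083, 1637, 1945 and 1555 in the non-irradiated group and 274, 835, 318, 368 and 122 at 6 hours. Its signals were 392, 365, 369, 363 and 342 at 24 hours and 2932, 3055, 2884, 3290 and 2785 at day 14. The 24-hour arrays were tight between 342 and 392, and day 14 arrays were all above the non-irradiated ones without passing the threshold. Changes of Tk1 were -2.51 ± 0.28 at 6 hours, -2.31 ± 0.28 at 24 hours and 0.72 ± 0.28 at day 14 (limma adjusted p = 1.21e-07, 3.6e-07 and 0.0674). With only the 2 groups fitted the day 14 change of Tk1 passed (limma adjusted p = 8.97e-06), and with the pan-leukocyte covariate it was -0.05. Dut, which removes dUTP and so keeps uracil out of DNA, read 5792, 6179, 6376, 5969 and 6369 in the non-irradiated group and 2550, 1973, 1633, 1740 and 1438 at 6 hours. It read 1722, 1868, 1908, 1863 and 1825 at 24 hours and 8568, 8211, 8816, 7891 and 7119 at day 14. Each irradiated group was apart from the non-irradiated one. Changes of Dut were -1.74 ± 0.11 at 6 hours, -1.74 ± 0.11 at 24 hours and 0.40 ± 0.11 at day 14 (limma adjusted p = 5.3e-12, 4.4e-12 and 0.011). The day 14 call of Dut was lost after quantile normalization (limma adjusted p = 0.0519) and with averaged probe sets (limma adjusted p = 0.13). Tyms, thymidylate synthase, was dim, with -1.08 ± 0.30 and -1.64 ± 0.30 at the early times, and its 4 probe sets ran from -4.63 to -1.08 at 6 hours. At day 14 the probe set used gave 0.02 without a call, while another was called lower (-1.70, limma adjusted p = 0.000376). The day 14 reading of Tyms thus depends on the probe set.

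**Figure D3:**
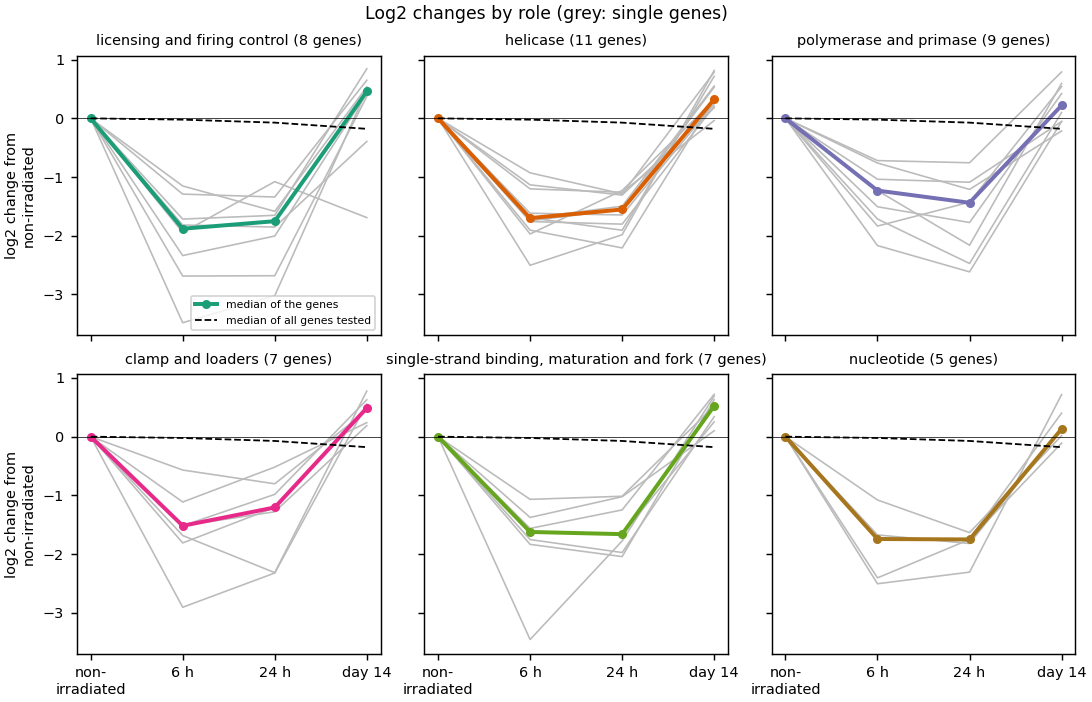
Log2 change from the non-irradiated group (y axis) at 6 hours, 24 hours and day 14 for the genes of each role (grey lines), with their median (coloured) and the median of all genes tested (dashed). The 6 medians run from -1.88 to -1.23 at 6 hours and from 0.13 to 0.52 at day 14, while that of all genes stays between -0.18 and -0.02.

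Single genes within a role lay further apart than the medians of the roles. At 6 hours the 6 medians ran from -1.88 (licensing) to -1.23 (polymerases), while single genes ran from -3.48 to -1.15 within licensing and from -2.17 to -0.72 within the polymerases. At 24 hours the lowest median was that of licensing and nucleotide genes (both -1.75) and the highest that of clamp and loaders (-1.21). No test was made of the difference between roles. The mean log2 signal of the 47 genes stood at 11.03 to 11.14 on the non-irradiated arrays, 9.24 to 9.52 at 6 hours, 9.39 to 9.51 at 24 hours and 11.38 to 11.49 at day 14. These 4 ranges overlapped only between 6 and 24 hours.

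The 2 early times were also set against each other. Of the 47 genes 6 were higher and 3 lower at 24 hours than at 6 hours in limma's direct contrast, beside 13.7% and 10.1% of all genes. These counts are near the background, and nothing is read from them. The median difference was -0.03. Chaf1b was higher by the most, 1.68 ± 0.29 (limma adjusted p = 0.000108), and it was the 1 gene that moved by 2-fold or more. The others higher were Cdc45 (0.74), Rrm2 (0.65), Rfc5 (0.60), Rfc1 (0.59) and Cdc6 (0.46). Both primase genes were lower, Prim2 with a difference of -0.93 ± 0.23 (adjusted p = 0.00387) and Prim1 with -0.76 ± 0.22 (adjusted p = 0.0127), as was Rfc4 (-0.63 ± 0.16, adjusted p = 0.00445). For Chaf1b all 5 arrays at 24 hours lay above all 5 at 6 hours and for Rfc4 all 5 below, the 1 gene in each direction, beside 7.99% and 6.61% of all genes. All 9 still read below non-irradiated samples at 24 hours. Without 24-hour replicate 3 the genes higher numbered 3, and with only the 2 groups in the fit 2 were higher and 0 lower.

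Partner genes were set side by side within each array as a difference of log2 signals, which removes the scale of the array. The size of such a difference between probe sets has no meaning, but its shift between groups does. An exact permutation test over the 252 splits of 5 and 5 arrays was used (two-sided, smallest p possible 0.00794) and adjusted over 15 tests. Rrm2b, the p53-induced small subunit of ribonucleotide reductase, was not called itself at any time (-0.55, 0.07 and -0.25 at 6 hours, 24 hours and day 14). Its signals were 398, 456, 360.4, 355 and 354 in the non-irradiated group and 481, 276, 207, 142 and 316 at 6 hours. They were 484, 460.3, 393, 374 and 319 at 24 hours and 352, 372, 301, 198 and 441 at day 14. All 4 groups overlapped. Rrm2b minus Rrm2 was -2.23, -3.12, -4.18, -3.49 and -3.31 on the 6-hour arrays, against -4.91, -4.92, -5.22, -5.28 and -5.28 on the non-irradiated arrays. The shift was 1.86 at 6 hours and 1.82 at 24 hours, with no overlap (exact permutation adjusted p = 0.0198 for both), and -0.14 at day 14 (exact permutation adjusted p = 0.629).

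Tk2, the mitochondrial thymidine kinase, likewise was not called at any time. It read 95.2, 161, 102, 71.5 and 112 in the non-irradiated group and 88.5, 121, 71.9, 56.0 and 61.3 at 6 hours. It read 130.1, 125, 123, 109 and 73.4 at 24 hours and 83.4, 76.3, 157, 101 and 119.8 at day 14. The groups overlapped throughout. At 6 hours replicates 4 and 5 read 56.0 and 61.3, close to their arrays' backgrounds of 47.6 and 51.5, so a fall of Tk2 could hardly show. Tk1 minus Tk2 was 1.62, 2.77, 2.13, 2.69 and 0.99 at 6 hours, against 4.32, 3.69, 4.00, 4.75 and 3.78 in the non-irradiated group. It shifted by -2.07 at 6 hours and -2.38 at 24 hours without overlap (exact permutation adjusted p = 0.0198 for both) and by 0.73 at day 14 (exact permutation adjusted p = 0.0649). Dbf4 minus Cdc7 was 0.12, -0.05, -0.08, 0.20 and 0.01 at day 14, against -0.82, -0.78, -1.05, -0.99 and -1.37 in the non-irradiated group. That shift of 1.04 had no overlap (exact permutation adjusted p = 0.0198), but it came to 0.24 (adjusted p = 0.0733) when each gene's probe sets were averaged. The same pair shifted by 0.53 at 6 hours and 0.51 at 24 hours (exact permutation adjusted p = 0.0649 and 0.034), and by -0.71 and -0.37 with averaged probe sets (exact permutation adjusted p = 0.0397 and 0.0765), so its early direction is not settled. Its 24-hour call was also lost without 24-hour replicate 3 or 4, or without non-irradiated replicate 1, 3, 4 or 5. Rrm2 minus Rrm1 shifted by -0.73 at 6 hours and 0.07 at 24 hours (exact permutation adjusted p = 0.0649 and 0.54), and with averaged probe sets its shifts of -0.46 and 0.69 passed (adjusted p = 0.0433 for both). It shifted by -0.24 at day 14 with no overlap (exact permutation adjusted p = 0.0198) and by 0.67 with averaged probe sets, so its direction is not settled. The Rrm1 average takes in a dim probe set, with means of 17.7 at 6 hours and 6.50 at 24 hours. These lie under the lowest array backgrounds of those groups (31.8 and 22.0). Cdt1 minus Gmnn shifted by 0.35, 0.68 and 0.06 at 6 hours, 24 hours and day 14, none past the threshold (exact permutation adjusted p = 0.417, 0.0595 and 0.635). Without 24-hour replicate 1 its 24-hour shift of 0.85 passed (exact permutation adjusted p = 0.017). With averaged probe sets its shifts of 0.88 at 6 hours and 1.17 at 24 hours passed as well (exact permutation adjusted p = 0.0149 for both). That average takes in a Cdt1 probe set with group means of only 2.11 to 4.55, under the lowest array background of 17.5. These averaged shifts are therefore not read as a result. The remaining Cdt1 probe set changed by -3.51 at 6 hours and -2.61 at 24 hours, beside -2.69 and -2.68 for Gmnn.

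**Figure D4:**
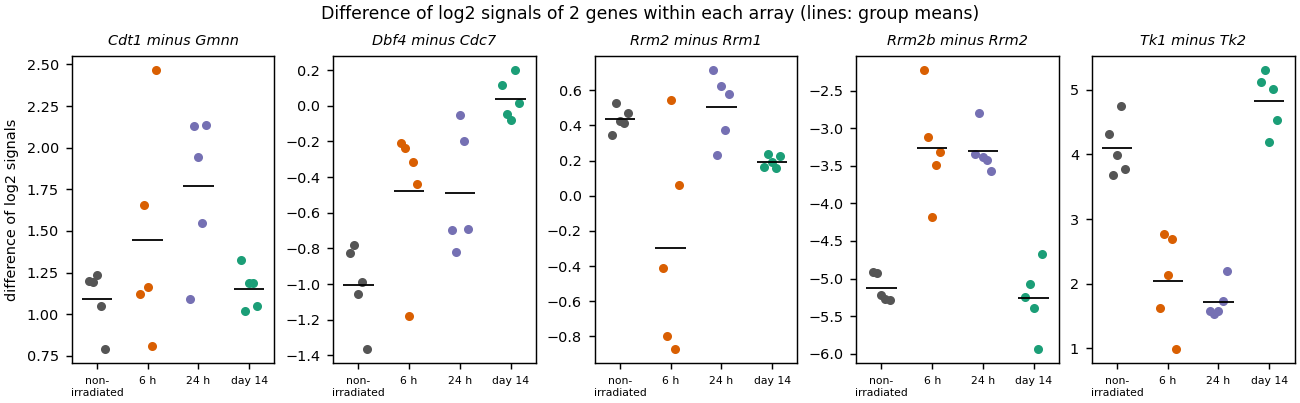
Difference of the log2 signals of 2 genes on each array (points, 5 arrays per group, y axis in log2 units, lines at group means) for 5 pairs, in non-irradiated samples and at 6 hours, 24 hours and day 14. Rrm2b minus Rrm2 and Tk1 minus Tk2 stand apart from the non-irradiated arrays at 6 and 24 hours, and Dbf4 minus Cdc7 and Rrm2 minus Rrm1 at day 14.

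Other genes of the replisome and of origins, a list that does not contain the 47, moved the same way in part. Of 39 listed, 37 were measured, and 27 fell and 0 rose at 6 hours, beside 14.5% and 12.9% of all genes in limma's test. At 24 hours 28 fell and 1 rose, beside 13.8% and 15.7%, and at day 14 8 rose and 1 fell, beside 9.47% and 13.0%. Their medians were -1.44, -1.25 and 0.24. Wdhd1, which ties the helicase to polymerase alpha, had -3.13 ± 0.31 at 6 hours and -3.33 ± 0.31 at 24 hours. The helicase Recql4 had -2.93 ± 0.46 and -4.91 ± 0.46, but 24-hour replicate 1 read 12.5, under its array's background of 22.0, so its 24-hour change is no exact size. Clspn, a checkpoint mediator at the fork, had -2.87 ± 0.32 and -2.58 ± 0.32, and Ticrr, an initiation factor, -1.48 ± 0.32 and -2.95 ± 0.32. Pold4, the smallest subunit of polymerase delta, was the 1 gene that rose at 24 hours (1.28 ± 0.25, limma adjusted p = 0.000192). At day 14 Rnaseh2a, the catalytic subunit of ribonuclease H2 (0.90 ± 0.22), the histone chaperone Asf1b (0.86 ± 0.24) and the Pcna-binding Pclaf (0.81 ± 0.16) rose most among those called, and Mcm9 fell (-0.97 ± 0.27).

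Nucleotide synthesis genes outside the 47 had smaller median changes early on. Of 42 listed 39 were measured, and 17 fell and 3 rose at 6 hours, beside 14.5% and 12.9% of all genes. At 24 hours 12 fell and 2 rose, beside 13.8% and 15.7%, and at day 14 20 rose and 1 fell, beside 9.47% and 13.0%. The medians of this list were -0.39, -0.26 and 0.47. Dck, the deoxycytidine kinase of the salvage route, fell most (-1.87 ± 0.21 at 6 hours and -2.10 ± 0.21 at 24 hours). Cmpk2, a mitochondrial nucleotide kinase, had -1.66 ± 0.30 at 6 hours and 1.21 ± 0.30 at day 14. Mthfd1 of the cytosolic folate cycle and Pfas of purine synthesis had -1.74 ± 0.14 and -1.55 ± 0.19 at 24 hours. Rises at 6 hours were those of Upp1, a uridine phosphorylase (1.89 ± 0.31), Nme2, a nucleoside diphosphate kinase (0.68 ± 0.07), and Prps2, which makes the ribose phosphate donor (0.50 ± 0.16). Samhd1, which breaks down deoxynucleotides, rose at 24 hours (0.77 ± 0.10). At day 14 Mthfd2, the mitochondrial folate enzyme, rose most (1.40 ± 0.21), followed by Cmpk2 and the dCTP pyrophosphatase Dctpp1 (1.20 ± 0.21).

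Markers of red cell precursors, which divide rapidly in marrow, moved in the same direction as the 47 genes at 6 and 24 hours. All 11 measured of 14 erythroid markers fell at 6 hours (median -3.28) and 24 hours (median -5.51), beside 14.5% and 13.8% of all genes. At day 14 2 rose and 0 fell, beside 9.47% and 13.0%, and nothing is read from this small count. Klf1, the erythroid transcription factor, read 6133, 5343, 5628, 5752 and 5609 in the non-irradiated group and 592, 232, 264, 474 and 590 at 6 hours. It read 157, 153, 172, 77.5 and 109.8 at 24 hours and 9225, 8201, 8601, 8374 and 7361 at day 14. The early arrays were far below the non-irradiated range and the day 14 arrays above it. Summed over the markers the erythroid signal ran between 53490 and 57360 on non-irradiated arrays, 6638 and 11400 on 6-hour arrays, 2591 and 3370 on 24-hour arrays and 64690 and 79130 on day 14 arrays. Its group means came to 15.2%, 5.21% and 128% of the non-irradiated mean at 6 hours, 24 hours and day 14, where the summed signal of the 47 genes was 34.3%, 33.6% and 122%. Rhag and Sptb, markers of red cell membranes, were at background on all 24-hour arrays. From 6 to 24 hours 9 erythroid markers fell further and 0 rose, beside 10.1% and 13.7% of all genes, while the 47 genes had a median difference of -0.03.

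Markers of other cell types were measured as well. The summed endothelial signal ran between 19190 and 20970 on non-irradiated arrays, 56750 and 65110 on 6-hour arrays, 28910 and 31100 on 24-hour arrays and 10010 and 11890 on day 14 arrays, and its group means were 295%, 150% and 54.6% of the non-irradiated mean. Cdh5, which encodes VE-cadherin itself, read 3312, 2829, 3961, 3115 and 2710 in the non-irradiated group and 7631, 8328, 8560, 9309 and 10940 at 6 hours. It read 5019, 5097, 4680, 4706 and 4950 at 24 hours and 1298, 1144, 1094, 1172 and 1757 at day 14. The arrays were high early and low at day 14 without overlap. The pan-leukocyte sum was 96.8%, 96.4% and 80.0% of the non-irradiated mean. The summed signal of monocyte and macrophage markers averaged 4591 ± 194 without irradiation, then 3482 ± 749 at 6 hours, 2990 ± 425 at 24 hours and 3132 ± 232 at day 14 (SD, n = 5 each). In the same order the granulocyte sum averaged 132900, 103900, 112200 and 101800. Other lists were higher at 6 hours. The megakaryocyte sum averaged 10960, 30030, 15540 and 9368, and the stromal and osteoblast sum 88150, 106000, 84340 and 69070. The dim T and NK sum averaged 583, 826, 846 and 689. The summed B-lineage signal stayed nearly level early on, at 2595 ± 181 without irradiation, 2479 ± 605 at 6 hours, 2605 ± 229 at 24 hours and 2313 ± 141 at day 14. The mean log2 signal of B-lineage markers, which weighs dim markers more, averaged 8.19 ± 0.09 without irradiation. It was then 7.72 ± 0.32 at 6 hours, 7.06 ± 0.31 at 24 hours and 7.88 ± 0.16 at day 14 (SD, n = 5 each), so the 2 measures differ. Mki67, a marker of cycling cells, had -1.03 ± 0.08 at 6 hours, -1.80 ± 0.08 at 24 hours and -0.37 ± 0.08 at day 14, lower at all 3 times as deposited. Median centring raises every gene's day 14 change by the same amount, the median of all genes from -0.18 to 0.72. The sign of the Mki67 change at day 14 therefore depends on the scale of the arrays. With the arrays' erythroid mean as a covariate 4 of the 47 genes were called lower at 6 hours and 0 at 24 hours, but 99.0% of that mean's variance lay between groups, so group and covariate cannot be told apart. With the pan-leukocyte markers' mean as covariate instead, 43 genes were lower at 6 hours and 46 at 24 hours, and 65.6% of that mean's variance lay between groups. The difference between the log2 signals of the 3' and 5' probe sets of Gapdh, a sign of RNA quality and labelling, averaged 1.33 in the non-irradiated group, 1.58 in the 6-hour group, 0.77 in the 24-hour group and 0.89 in the day 14 group, and with it as a covariate 45 and 40 genes were lower at the early times. Of the variance of this difference 83.8% lay between groups, so the covariate is in large part shared with the groups. The mean log2 signal of 18 hybridization control probe sets also differed. It ran from 12.66 to 12.87 on non-irradiated arrays and from 12.66 to 13.04 at 6 hours. At 24 hours it ran from 12.01 to 12.36 and at day 14 from 11.95 to 12.38, with no overlap with the former ranges. The shares of all genes called in the covariate fits are not given here, so their counts are not read as a result about the 47 genes. The part of cell make-up, of RNA quality and of array processing in these changes was not tested.

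**Figure D5:**
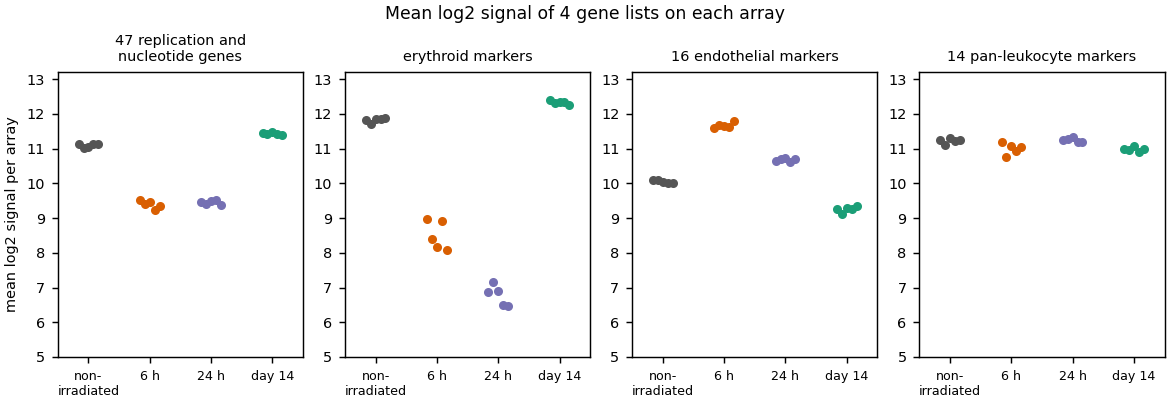
Mean log2 signal per array (points, 5 arrays per group, 1 y scale) of the 47 replication and nucleotide genes and of 11 erythroid, 16 endothelial and 14 pan-leukocyte markers, for non-irradiated samples, 6 hours, 24 hours and day 14. The 47 genes and the erythroid markers are low at 6 and 24 hours and high at day 14; the erythroid markers are lower at 24 than at 6 hours, and the endothelial markers run the other way.

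Most probe sets of these genes fell early, whichever was the brightest. The 47 genes had 101 probe sets, of which 94 fell and 0 rose at 6 hours, beside 15.5% and 11.0% of all probe sets (limma on all probe sets). At 24 hours 96 fell and 0 rose, beside 15.1% and 13.8%. At day 14 28 rose and 11 fell, beside 8.24% and 16.7% of all probe sets, with a median of 0.40. A probe set of Mcm3 that is not its brightest was higher at day 14 by 1.19 (limma adjusted p = 4.66e-05) and one of Fen1 by 1.00 (limma adjusted p = 0.0262), both past 2-fold. This count over every probe set was chosen after seeing the data.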

How the data were processed

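The authors hybridized amplified, biotin-labelled RNA (Qiagen RNeasy micro and NuGEN Ovation V2, per the labels' protocols) to expression arrays. They deposited linear intensity values for 45101 probe sets on 20 arrays, and the 2% trimmed mean of every deposited array is 500. Expression Console (Affymetrix) was used, as was Transcriptome Analysis Console, per the submitters' processing notes. How the scanner files were summarised is not given in the sources used here.

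Probe sets with 1 gene symbol (34945) were kept, and those with several (932) or none (9160) and 64 controls were left out. Each of 18193 genes was read from its brightest probe set as log2(signal + 1). Brightest means the highest mean of log2(signal + 1) over the 20 arrays. A ranking by mean linear signal would choose another probe set for some genes, Orc1 and Tyms among them. A model over all 20 arrays was fitted with limma 3.58.1 in R 4.3.3 (eBayes with trend), and Benjamini-Hochberg adjustment ran over all genes, with calls at an adjusted p under 0.05. Pairs of genes were tested by exact permutation, with all splits listed by code written for the purpose and adjustment over 15 tests. The permutation test of SciPy 1.17.1 was run beside that code on random numbers only. The fit was tested on simulated data, with 200 genes changed at 6 hours. It recovered 10.4% of 1.5-fold, 29.9% of 2-fold and 63.6% of 4-fold changes, with 5 false calls among 74. The simulation changed far fewer genes than were called in the data, so recovery here may differ. A gene that was not called may still have changed. The number of arrays limits precision. The members and gene lists were chosen with earlier results of these data known.

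All 47 genes were accounted for. Signals of every array were given for the 2 genes per role with the largest change at each time, genes called against the trend, and partner genes, together with Pcna, which was added after its values were seen. From other lists the 3 largest called changes and up to 3 rises per time were named. Same-numbered replicates did not deviate together (0 of 30 pairs of arrays correlated above 0.1), so the numbers were not used as pairs. Alternatives covered normalization, dim genes, the choice of probe set, the added constant, weights, covariates, thresholds and left-out arrays. Promoter sequences are RefSeq's for GRCm38.p6, and 10 genes had no sequence used here.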

Additional observations from a re-analysis of the deposited data

Results flagged for a closer look

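In 9 of 188 groups of 5 arrays, 1 array of a gene stood far from the other 4 by Dixon's test. Chance gives such a gap in about 1 of 20 groups, or 9.4 of 188. The array far above its group was 24-hour replicate 1 for Mcm3 (2520), day 14 replicate 5 for Pold3 (1420), and, in the non-irradiated group, replicate 2 for Dbf4 (1390) and replicate 1 for Prim1 (3780) and Fen1 (7720). The array far below was 6-hour replicate 2 for Mcm5 (1150), 24-hour replicate 5 for Pole (133), and, in the non-irradiated group, replicate 2 for Pold3 (777) and replicate 1 for Rrm2 (12000).

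The change from the non-irradiated group differed between 24 and 6 hours for 9 genes in limma's direct contrast. On the log2 scale the 24-hour value minus the 6-hour value was 1.68 for Chaf1b, 0.74 for Cdc45, 0.65 for Rrm2, 0.60 for Rfc5, 0.59 for Rfc1 and 0.46 for Cdc6. It was -0.93 for Prim2, -0.76 for Prim1 and -0.63 for Rfc4. Between day 14 and 24 hours the changes of 46 of the 47 genes differed, and between day 14 and 6 hours those of 46.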

How the results depend on the processing

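The counts of genes lower at 6 and 24 hours stayed within 1.5 times of 46 under all alternatives but the erythroid covariate, which gave 4 at 6 hours and 0 at 24 hours, 8 higher at day 14, 0 lower and 0 higher between 24 and 6 hours, 0 higher between day 14 and 24 hours and 5 between day 14 and 6 hours. Group and erythroid signal cannot be told apart there. The shares of all genes called under the alternatives named here and below are not given, so these counts show only how far the calls moved. The day 14 count of 14 higher became 8 (quantile normalization), 46 (median centring), 25 (array weights), 32 (only the 2 groups fitted), 9 (3' minus 5' covariate), 7 (adjusted p under 0.01), 0 (at least 2-fold) and 9 to 13 with an array left out. The 1 gene lower at day 14 became 0 (median centring, 3' minus 5' or pan-leukocyte covariate, adjusted p under 0.01), 4 (averaged probe sets), 2 (array weights, only the 2 groups) and 0 to 1 with an array left out. Between 24 and 6 hours the 3 lower became 0 (without _x_at, _s_at and _a_at probe sets, only the 2 groups, at least 2-fold) or 1 (3' minus 5' covariate). The 6 higher became 3 (array weights, 3' minus 5' or pan-leukocyte covariate), 2 (only the 2 groups, adjusted p under 0.01), 1 (at least 2-fold) and 3 to 7 with an array left out. Median centring gave 0 lower at day 14 in both other lists and 6 lower nucleotide genes at 24 hours.

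With averaged probe sets Cdt1 minus Gmnn shifted by 0.88, 1.17 (both passing, exact permutation adjusted p = 0.0149) and -0.20 at 6 hours, 24 hours and day 14, Dbf4 minus Cdc7 by -0.71, -0.37 and 0.24, Rrm2 minus Rrm1 by -0.46, 0.69 and 0.67, and Rrm2b minus Rrm2 at day 14 by -0.59. The averages of Cdt1 and Rrm1 take in probe sets with group means under background, so their averaged shifts are not read as results. With an array left out Cdt1 minus Gmnn was 0.58 to 0.85 at 24 hours and -0.016 to 0.096 at day 14. Dbf4 minus Cdc7 was 0.44 to 0.70 at 6 hours and 0.40 to 0.59 at 24 hours. Rrm2 minus Rrm1 was -0.94 to -0.59 at 6 hours, and Rrm2b minus Rrm2 was -0.29 to 0.029 at day 14. Single genes changed sign with averaged probe sets at day 14 (Prim2 -0.47, Chaf1b -0.29), with the erythroid covariate (Gins1 0.29, Rpa2 0.13 and Orc1 6.13 at 24 hours, Prim2 -0.11 at day 14) and with the pan-leukocyte covariate (Tk1 -0.054 at day 14). The cause was not tested. With the replicate block 46 genes were lower at 6 and 24 hours and 15 higher at day 14, where Tk1 passed (limma adjusted p = 0.0489), and no other call changed. Signal near background limits Orc1, Dscc1, Chaf1b and Tyms.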

Other observations

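Of the 47 genes 35 had several probe sets, and for some genes these gave different changes. Tyms ran from -1.81 to 0.02, Prim2 from -2.49 to 0.60, Pola1 from -2.35 to 0.42 and Orc1 from -1.69 to 0.40 on the log2 scale at day 14. At the same time Mcm3 ran from 0.25 to 1.19, Rrm2 from -0.11 to 0.82, Fen1 from 0.25 to 1.00 and Mcm4 from 0.18 to 0.68. At 6 hours Cdt1 ran from -3.51 to 0.44. The 0.44 is that of a probe set with group means of 2.11 to 4.55, under the lowest array background of 17.5, and it was not called. The lowest day 14 values of Prim2 and Pola1 also came from dim probe sets. Their day 14 means were 20.6 and 25.2, where array backgrounds ran from 17.5 to 32.8.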
